A study of Homo sapiens with 6 samples.

Results

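The genes described are 30 transcriptional targets of p53 that lie outside the apoptosis gene families: feedback regulators such as MDM2, growth arrest genes such as GADD45A, sestrins, DNA repair genes, redox and mitochondrial genes, effectors such as ZMAT3, and secreted factors. They were taken by gene symbol from the deposited expression table, and all 30 were found among its 23290 genes. The RNA came from U87, an established line of human glioblastoma cells, infected with a retroviral vector for silencing of Caspase-8 (shC8, 3 libraries) or with a retroviral scramble vector (shCTR, 3 libraries). Both groups therefore carry a retroviral vector and were grown in the same serum-containing medium. The labels do not say which hairpin was used, whether cells were cloned or pooled, or whether the 3 libraries of a group came from separate cultures. The spread that enters the p-values may therefore be technical.

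The p53 protein is a transcription factor that is stabilised by DNA damage and other stress and that binds response elements near its target genes. Its targets stop the cell cycle, repair DNA, change metabolism and autophagy or lead to death, and some of them, MDM2 above all, switch p53 off again. U87 cells are known to have lost the CDKN2A locus, which encodes the MDM2 inhibitor ARF. Several of the target genes also answer to other factors, such as ATF4 (SESN2, GDF15) or FOXO proteins (SESN1, SESN3).

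Of 30 genes, 29 had a mean of at least 1 FPKM (fragments per kilobase of transcript and of library size) over the 6 libraries and were tested. ZMAT3, EI24 and GADD45A fell and PERP rose in shC8, while 25 did not pass limma's test at an adjusted p under 0.05. Among all 11598 genes tested, 7.14% were called higher and 4.94% lower, against 1 and 3 of the 29 p53 targets. With median-of-ratios scaling the calls over all genes tested were 621 higher and 820 lower, in place of 828 and 573, and the median change of all genes tested was -0.0075. The median change of the 29 on the log2(FPKM + 1) scale was -0.09, and that of all genes tested was 0.04. The same median taken between libraries of 1 group differed by up to 0.225, while within the same-numbered pairs it was -0.12, -0.10 and -0.21. MDM2, the feedback gene of p53, and CDKN1A, the p21 gene, did not pass. With the replicate number as a block, which pairs same-numbered libraries, 4 of the 29 were higher and 9 lower, MDM2 among the lower (limma adjusted p = 0.0451). That fit called 16.1% of all genes tested higher and 10.6% lower.

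The libraries had value totals of 489055 to 516634 FPKM and between 16326 and 17024 genes above 0. Absolute depth is unknown. The commonest ratio of values under 0.05 FPKM placed the depth of the other 5 libraries at 1.09 to 1.21 times that of shCTR 1. CASP8, the gene to be silenced, was at 4.39, 4.46 and 4.44 FPKM in shC8 1, 2 and 3 and at 15.1, 14.9 and 13.4 FPKM in shCTR 1, 2 and 3 (log2 change -1.51, SE 0.0705, limma adjusted p = 0.000206). For CASP8 alone, exact permutation (two-sided) gave p = 0.1, the least that 3 against 3 libraries can reach. Of the genes that U87 cells are known to have lost, CDKN2A and CDKN2B were listed at 0 in all 6 libraries and MTAP did not exceed 0.0302 FPKM. VIM lay between 3640 and 4710 FPKM, while all 5 astrocyte and glial progenitor markers (GFAP, S100B, AQP4, OLIG2 and SOX2) stayed under 1 FPKM. The immune markers PTPRC, CD14 and CD3E and the endothelial markers PECAM1, CDH5 and TEK were also under 1 FPKM, KDR reached 1.96 FPKM, and CD68, which many cultured lines express, lay between 135 and 157 FPKM. In such bulk RNA, fewer cells of a type and less RNA per cell cannot be told apart.

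The 30 genes spanned a wide range of levels. Mean values over the 6 libraries lay between 0.879 FPKM for ACER2 and 236 FPKM for RPS27L, with a median of 10.9 FPKM for the 29 genes tested and 12.3 FPKM for all genes tested. Of the 30 genes, 13 reached 20 FPKM or more and 15 were under 10 FPKM. CCNG1, GADD45A, MDM2 and RRM2B followed RPS27L in this order.

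**Figure D1:**
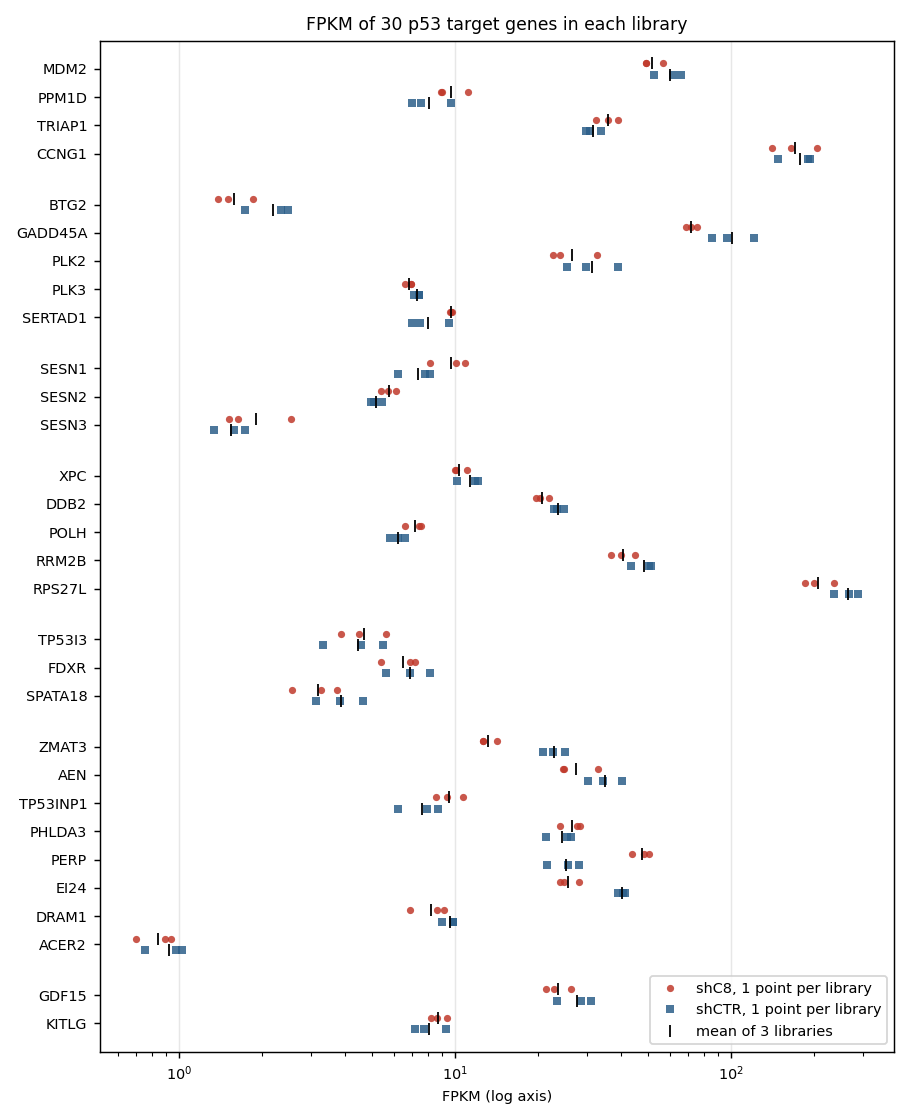
FPKM (log axis) of the 30 genes in each library, grouped by role, with 1 point per library, shC8 above shCTR, and a tick at each mean. For ZMAT3, EI24, GADD45A and PERP the points of the groups stand apart, while for MDM2 and CCNG1 they overlap.

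Among the genes grouped under feedback on p53, which also took in TRIAP1, no change passed the test. MDM2, whose product is the ubiquitin ligase that marks p53 for degradation, had 49.1, 49.3 and 56.7 FPKM in shC8 1, 2 and 3 and 61.4, 52.8 and 65.8 FPKM in shCTR 1, 2 and 3. The groups overlapped, since shC8 3 lay above shCTR 2. The log2 change was -0.21 (SE 0.0981, limma adjusted p = 0.202), and with the replicate number as a block the limma adjusted p was 0.0451. PPM1D, which encodes the WIP1 phosphatase that reverses damage signalling to p53, had 8.93, 8.99 and 11.2 FPKM in shC8 and 7.55, 6.96 and 9.68 FPKM in shCTR. In both groups library 3 was the highest, and the change was 0.24 (SE 0.131, limma adjusted p = 0.257, with the block 0.0325). TRIAP1, a gene for a small mitochondrial inhibitor of apoptosis, stood at 38.9, 32.4 and 36.0 FPKM in shC8 and at 33.9, 29.9 and 30.8 FPKM in shCTR, a change of 0.17 (SE 0.0848, limma adjusted p = 0.215, with the block 0.0463). CCNG1, the cyclin G1 gene, averaged 171 ± 32.0 FPKM in shC8 and 178 ± 25.4 FPKM in shCTR (SD, n = 3 each). Its change of -0.07 became 0.06 in the fit with a range term, explained further on, and so had no stable sign.

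Among growth arrest genes and kinases, GADD45A fell. GADD45A encodes a stress protein that restrains the cell cycle kinase CDK1 and takes part in repair. Its FPKM was 75.1, 69.0 and 71.5 in shC8 1, 2 and 3 and 121, 85.1 and 96.6 in shCTR 1, 2 and 3, so the highest shC8 library lay below the lowest shCTR library. The log2 change was -0.47 (SE 0.123, limma adjusted p = 0.0491), just inside the threshold. The call ended in the fit without shC8 1, shC8 2, shC8 3, shCTR 1 or shCTR 3 (limma adjusted p up to 0.136) as well as with the range term (0.0602), with no filter on low values (0.0979) and with no mean trend (0.0574), and the change without shCTR 1 was -0.33.

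PLK2, a polo-like stress kinase gene, had 32.8, 22.7 and 24.0 FPKM in shC8 and 39.0, 25.5 and 29.9 FPKM in shCTR. Library 1 was the highest in both groups, and this difference between libraries was larger than that between groups. The change was -0.24 (SE 0.180, limma adjusted p = 0.416), and with the block the limma adjusted p was 0.0234. Its relative PLK3 averaged 6.81 ± 0.203 FPKM in shC8 and 7.31 ± 0.158 FPKM in shCTR (SD, n = 3 each), a change of -0.09 that did not pass although the groups did not overlap. BTG2, an antiproliferative gene, was low, at 1.58 ± 0.242 FPKM in shC8 and 2.19 ± 0.395 FPKM in shCTR, with a change of -0.30 (limma adjusted p = 0.157). SERTAD1, whose product binds the cell cycle kinase CDK4, averaged 9.66 ± 0.0636 FPKM in shC8 and 7.97 ± 1.34 FPKM in shCTR. It changed by 0.26 (limma adjusted p = 0.151) and passed only in the fit without shCTR 3 (0.0365).

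All 3 sestrin genes had positive changes, and none passed. Sestrins restrain the growth kinase complex mTORC1 and lower oxidative stress. SESN1 was at 10.1, 8.10 and 10.8 FPKM in shC8 and at 8.12, 6.19 and 7.76 FPKM in shCTR. Within each same-numbered pair the shC8 library was higher, by 0.29, 0.34 and 0.43 on the log2(FPKM + 1) scale in pairs 1, 2 and 3, while shC8 2 lay just under shCTR 1. The change was 0.35 (SE 0.128, limma adjusted p = 0.116, with the block 0.0112). SESN2, the leucine-sensing sestrin, averaged 5.74 ± 0.374 FPKM in shC8 and 5.16 ± 0.260 FPKM in shCTR (change 0.13, limma adjusted p = 0.297). SESN3 averaged 1.90 ± 0.566 FPKM in shC8 and 1.55 ± 0.198 FPKM in shCTR (change 0.17, limma adjusted p = 0.467), and shC8 3 alone was high, at 2.55 FPKM.

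Of 5 genes grouped under DNA repair and nucleotide supply, which also took in RPS27L, 4 had negative changes and none passed. RPS27L, a p53-induced relative of a ribosomal protein gene, had 236, 186 and 200 FPKM in shC8 and 290, 236 and 269 FPKM in shCTR. The groups met at 236 FPKM, with shC8 1 just below shCTR 2. The change was -0.36 (SE 0.112, limma adjusted p = 0.0800), and it passed with the block (0.00634), with median-of-ratios scaling (0.0499) and without shC8 1 (0.0385). RPS27L resembles RPS27, with which reads could be shared. RRM2B, which encodes the p53-inducible subunit of ribonucleotide reductase, had 44.97, 36.8 and 40.1 FPKM in shC8 and 50.5, 43.6 and 51.3 FPKM in shCTR, a change of -0.25 (SE 0.0955, limma adjusted p = 0.130, with the block 0.0224). DDB2, the gene of a sensor of ultraviolet damage, had 22.0, 20.3 and 19.7 FPKM in shC8 and 24.8, 22.8 and 23.4 FPKM in shCTR. Its groups did not overlap, and the change was -0.19 (SE 0.0678, limma adjusted p = 0.113, with the block 0.0381). XPC, the damage recognition gene of nucleotide excision repair, changed by -0.12 (limma adjusted p = 0.381), and POLH, which encodes the translesion polymerase eta, by 0.18 (limma adjusted p = 0.185).

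None of the redox and mitochondrial genes passed the test, with or without the block. TP53I3, a quinone oxidoreductase gene often used as a p53 readout, averaged 4.66 ± 0.909 FPKM in shC8 and 4.45 ± 1.08 FPKM in shCTR (SD, n = 3 each). FDXR, the ferredoxin reductase gene, averaged 6.46 ± 0.935 FPKM in shC8 and 6.85 ± 1.24 FPKM in shCTR. SPATA18, a gene of mitochondrial quality control, averaged 3.19 ± 0.590 FPKM in shC8 and 3.86 ± 0.748 FPKM in shCTR, and was lower in shC8 in all 3 pairs (limma adjusted p with the block 0.0684). Their changes were 0.06, -0.07 and -0.21, with limma adjusted p of 0.849, 0.780 and 0.372.

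Among 8 stress, death and autophagy effectors, ZMAT3 and EI24 fell and PERP rose, and these were the changes of largest size among the 29 genes. ZMAT3 encodes a zinc finger protein that binds RNA and affects splicing and mRNA stability. It lies on the minus strand of chromosome 3 from 179017223 to 179072279 (GRCh38). Its FPKM was 12.6, 12.6 and 14.2 in shC8 1, 2 and 3 and 22.7, 20.9 and 25.1 in shCTR 1, 2 and 3, which left 57.5% of the shCTR mean. Every shC8 library was far below every shCTR library. The log2 change was -0.75 (SE 0.0866, limma adjusted p = 0.00390), and of all genes tested 2.62% had a larger absolute change.

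EI24, which encodes a membrane protein of the endoplasmic reticulum that takes part in autophagy, spans chromosome 11 from 125569216 to 125584687, plus strand. It had 28.0, 24.9 and 24.0 FPKM in shC8 and 41.2, 38.9 and 40.6 FPKM in shCTR. The groups were well apart and the shCTR libraries lay close together. The change was -0.63 (SE 0.0731, limma adjusted p = 0.00390). The annotation holds 4 pseudogenes named after EI24, which could share its reads. The same holds for TRIAP1, CCNG1 and POLH, with 1 such pseudogene each.

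PERP encodes a tetraspan membrane protein that is needed for desmosomes and that both p53 and its relative p63 are known to activate. The gene lies on the minus strand of chromosome 6 from 138088505 to 138107511. Its FPKM was 43.8, 50.4 and 48.3 in shC8 1, 2 and 3 and 21.6, 25.8 and 28.3 in shCTR 1, 2 and 3. The lowest shC8 library was well above the highest shCTR library, and the mean was 1.89-fold higher in shC8. The change was 0.90 (SE 0.105, limma adjusted p = 0.00411), and 1.69% of all genes tested had a larger absolute change. ZMAT3, EI24 and PERP passed in all 14 alternative fits, with limma adjusted p up to 0.0211, 0.0229 and 0.0262. Of the epithelial markers, which desmosomal genes often accompany, EPCAM, CDH1, KRT8, KRT18 and KRT5 together summed to 2.93 to 3.86 FPKM in shC8 and 2.16 to 2.45 FPKM in shCTR. They did not move together. KRT18 lay between 1.49 and 1.93 FPKM in shC8 and between 0.562 and 0.972 FPKM in shCTR. The groups overlapped for EPCAM, CDH1 and KRT8, and EPCAM reached 0.916 FPKM in shC8 and 1.42 FPKM in shCTR. KRT5 did not exceed 0.0637 FPKM. Only 1 of the 5 reached the minimum for testing. The part of these markers in the PERP result was not tested.

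The other effectors did not pass. AEN, which encodes a nuclease that acts in apoptosis, had 33.0, 24.8 and 24.7 FPKM in shC8 and 40.3, 30.2 and 34.5 FPKM in shCTR, lower within each pair though the groups overlapped. Its change was -0.34 (SE 0.140, limma adjusted p = 0.152, with the block 0.0114). TP53INP1, a stress gene of p53 activation and autophagy, averaged 9.55 ± 1.09 FPKM in shC8 and 7.61 ± 1.28 FPKM in shCTR (SD, n = 3 each), with a change of 0.30 (limma adjusted p = 0.166). DRAM1, a lysosomal membrane gene of autophagy, changed by -0.21 (limma adjusted p = 0.231) and PHLDA3, an AKT inhibitor gene, by 0.12 (limma adjusted p = 0.438). ACER2, a Golgi ceramidase gene, averaged 0.841 ± 0.127 FPKM in shC8 and 0.916 ± 0.146 FPKM in shCTR, under the minimum for testing.

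Neither secreted factor passed. GDF15, a stress-induced cytokine of the TGF-beta superfamily, had 26.2, 21.4 and 22.9 FPKM in shC8 and 28.7, 23.3 and 31.0 FPKM in shCTR, with overlapping groups and a change of -0.22 (SE 0.118, limma adjusted p = 0.255). KITLG, the ligand of the receptor KIT, averaged 8.69 ± 0.594 FPKM in shC8 and 8.03 ± 1.08 FPKM in shCTR (change 0.11, limma adjusted p = 0.513).

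**Figure D2:**
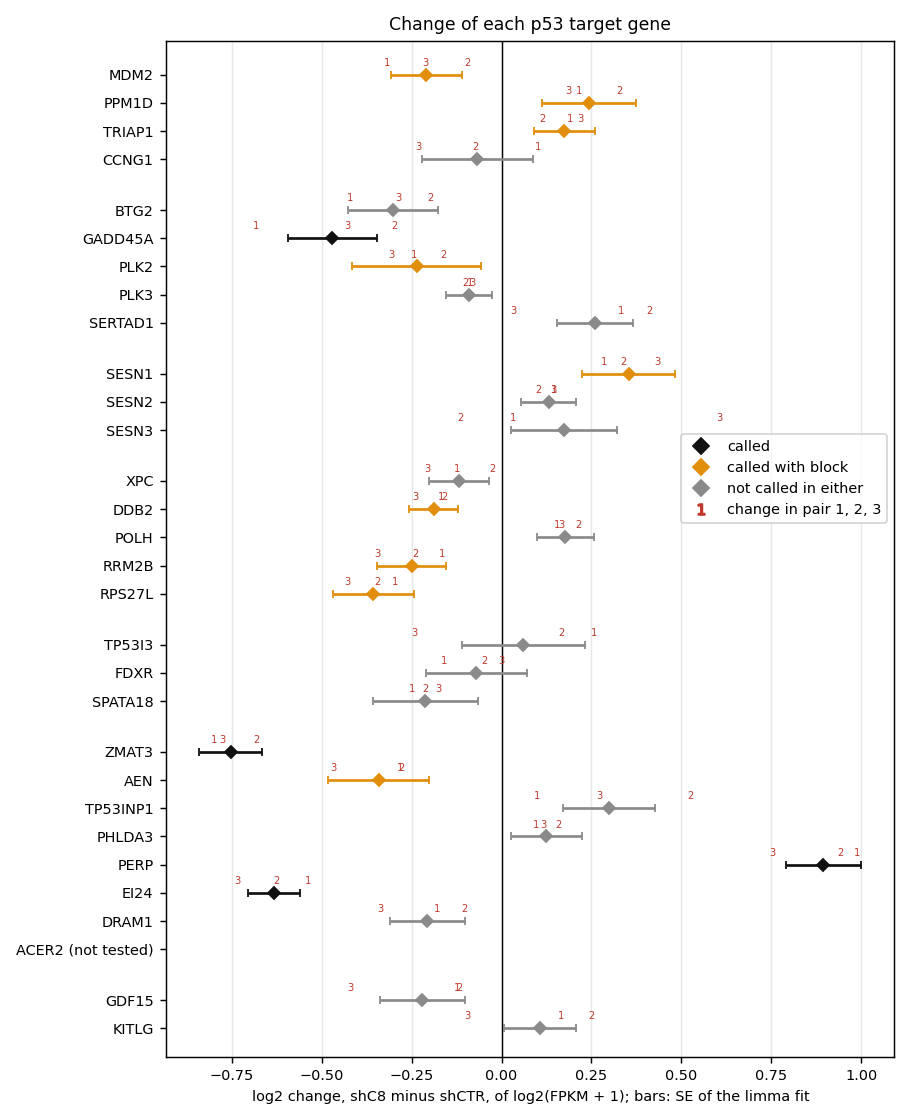
Log2 change (shC8 minus shCTR) of each gene with its standard error from limma, by role, and the changes within the same-numbered pairs as digits. PERP at 0.90, ZMAT3 at -0.75, EI24 at -0.63 and GADD45A at -0.47 were called, and 9 more genes were called with the replicate block.

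**Figure D3:**
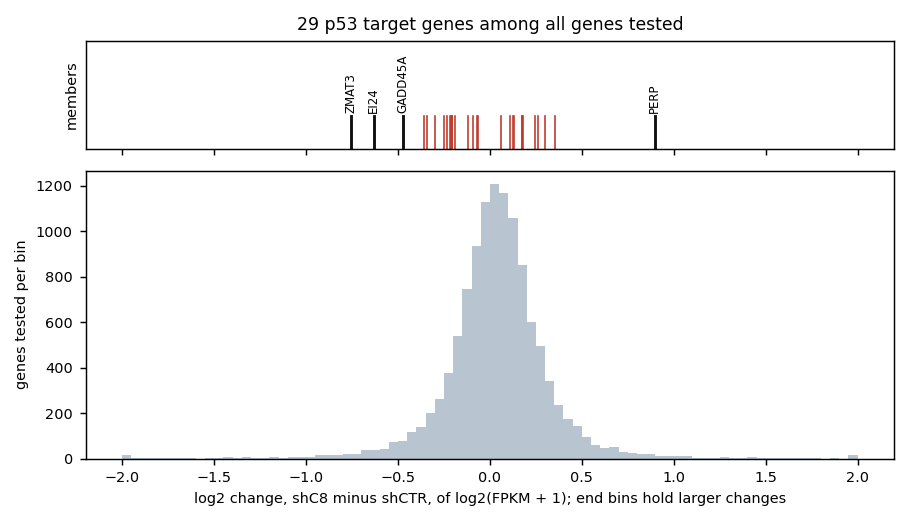
Number of genes tested per bin of log2 change (shC8 minus shCTR, bars), with the 29 p53 targets as lines above. ZMAT3, EI24, GADD45A and PERP lie outside the range of the other 25, which stay between -0.36 and 0.35.

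Directions were mixed across the roles. Of the 29 genes, 17 (58.6%) had a negative change, against 42.1% of all genes tested. Within the same-numbered pairs, 16 genes were lower in shC8 in all 3 pairs, 9 were higher in all 3 and 4 went both ways (CCNG1, SESN3, TP53I3 and KITLG). Among all genes tested 24.5% were lower and 36.3% higher in all 3 pairs. The median of the 29 was -0.12, -0.10 and -0.21 in pairs 1, 2 and 3, where that of all genes tested was 0.06, 0.03 and 0.02. Column names in the deposited table carry numbers of a lower range (shC8 1, shCTR 1 and shCTR 3) and of an upper range (shC8 2, shC8 3 and shCTR 2), the range term above, and their meaning is not stated. The median of the 29 was -0.06 among libraries of the lower range and 0.00 among those of the upper range. That of all genes tested was 0.06 and 0.03, and in each range 1 group has a single library. The groups did not overlap for 8 genes: GADD45A, PLK3, DDB2, RPS27L, ZMAT3 and EI24 were lower in every shC8 library and SERTAD1 and PERP higher. The shares for all genes tested were 13.1% lower and 21.7% higher.

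Another pattern among the 29 genes ran along the replicate numbers, and it rests on 1 library per group. Library 2 was the lowest of its group for 18 genes in shC8 and for 24 genes in shCTR, and for 17 genes (58.6%) in both groups at once, among them CCNG1, TP53I3, FDXR, SPATA18, SESN1 and GDF15. For all genes tested library 2 was the lowest in 37.7% of cases in shC8, in 34.0% in shCTR and in 19.7% in both. TP53I3 shows it, with 5.64, 3.85 and 4.48 FPKM in shC8 1, 2 and 3 and 4.56, 3.32 and 5.48 FPKM in shCTR 1, 2 and 3. The median deviation of the 29 genes from their own group mean was -0.09 in shC8 2 and -0.16 in shCTR 2 on the log2(FPKM + 1) scale, against -0.02 and -0.01 for all genes tested. PERP, POLH and KITLG were instead lowest in library 1 of both groups, and DRAM1 in library 3 of both. Both number 2 libraries belong to the upper range of column numbers, as does shC8 3 but not shCTR 3, and the part of these ranges in the pattern was not tested.

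**Figure D4:**
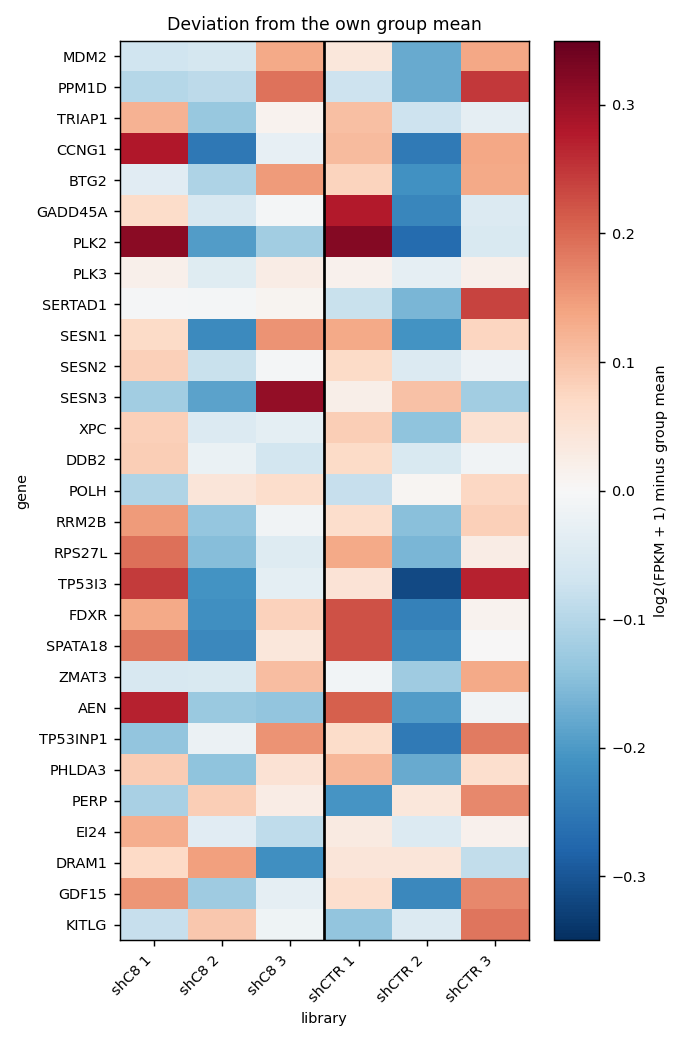
Deviation of log2(FPKM + 1) from the own group's mean for each of the 29 genes (rows) in each library (columns, shC8 left of shCTR). Most rows are blue, below their group mean, in shC8 2 and shCTR 2, as 25 of 29 genes were in each.

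With the replicate number as a block, 4 of the 29 genes were called higher (PPM1D, TRIAP1, SESN1 and PERP) and 9 lower (MDM2, GADD45A, PLK2, DDB2, RRM2B, RPS27L, ZMAT3, AEN and EI24). Among all genes tested 16.1% were higher and 10.6% lower in that fit. MDM2 and its fellow feedback gene PPM1D thus moved in opposite directions there, and so did the repair gene RRM2B and the sestrin gene SESN1. Of these 13 changes, only those of ZMAT3, EI24 and PERP exceeded 0.5 in absolute size.

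The letters of the promoter windows were set beside the changes. RefSeq windows (GRCh38.p14, 250 bases before to 50 after the annotated start) were at hand for 26 of the 30 genes. They were searched for the p53 decamer, the repeated unit of the p53 response element, whose consensus reads the same on both strands. It was found in 5 of 26 windows (19.2%), those of EI24, RPS27L, AEN, PLK2 and FDXR, and in 6.63% of all 35116 windows and 5.21% of the windows of genes tested. None of the 26 held a pair of decamers at most 13 bases apart, and 0.0285% of all windows did. The changes of the 5 genes with the decamer were -0.63, -0.36, -0.34, -0.24 and -0.07 for EI24, RPS27L, AEN, PLK2 and FDXR, of which that of EI24 passed. The sign of the FDXR change turned in the fits with the range term (0.02), without shC8 2 (0.04) and without shCTR 1 (0.04). ZMAT3, MDM2 and PERP held no decamer in this window, and GADD45A, RRM2B, TP53INP1 and PHLDA3 are named only. A match describes these letters and not a bound site.

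The EI24 window is shown whole because EI24 fell and holds the decamer, and the stretches around it in the other 4 genes follow so that the matches can be compared. They read 5′ to 3′ on the gene's strand, with the decamer in capitals. They lie at chr11:125569227-125569526 (plus strand), chr15:63157502-63157561 (minus), chr15:88621281-88621340 (plus), chr5:58460184-58460243 (minus) and chr17:74872971-74873030 (minus) in the order given. EI24 carries the decamer from 10 bases before its RefSeq start, FDXR from 11, AEN from 34, RPS27L from 59 and PLK2 from 132. The GENCODE spans of these genes begin further upstream, so each match lies inside the gene in that annotation. For EI24 the GENCODE span begins at 125569216, and for RPS27L, on the minus strand, at 63158021. Both lie ahead of the gene's whole window.
EI24: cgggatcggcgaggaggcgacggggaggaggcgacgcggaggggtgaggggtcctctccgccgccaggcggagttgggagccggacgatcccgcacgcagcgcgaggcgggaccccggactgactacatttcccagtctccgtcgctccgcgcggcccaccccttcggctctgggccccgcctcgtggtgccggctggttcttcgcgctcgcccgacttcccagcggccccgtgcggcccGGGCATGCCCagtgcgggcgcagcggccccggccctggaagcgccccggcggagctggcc
RPS27L: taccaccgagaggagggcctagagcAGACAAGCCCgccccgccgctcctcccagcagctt
AEN: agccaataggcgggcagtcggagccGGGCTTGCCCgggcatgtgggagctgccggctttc
PLK2: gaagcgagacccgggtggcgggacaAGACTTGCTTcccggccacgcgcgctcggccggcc
FDXR: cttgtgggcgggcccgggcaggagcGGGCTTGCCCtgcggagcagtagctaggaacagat

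The PERP window (chr6:138107370-138107669, minus strand) is shown because PERP had the largest change of the 29 genes. The AP-1 motif TGACTCA, searched on both strands, occurs in it once, in capitals, ahead of the start. It was found in 1 of 26 windows (3.85%) of the p53 targets, in 4.95% of all windows and in 3.18% of those of genes tested.
PERP: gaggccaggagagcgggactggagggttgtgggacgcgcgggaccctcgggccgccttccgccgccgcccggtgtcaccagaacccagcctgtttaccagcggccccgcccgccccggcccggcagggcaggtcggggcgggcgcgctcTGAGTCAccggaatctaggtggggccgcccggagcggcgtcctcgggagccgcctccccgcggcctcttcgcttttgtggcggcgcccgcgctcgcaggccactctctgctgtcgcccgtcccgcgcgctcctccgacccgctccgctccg

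Outside the 30 genes, MDM4, the p53 inhibitor related to MDM2, averaged 4.17 ± 0.0736 FPKM in shC8 and 4.22 ± 0.348 FPKM in shCTR (SD, n = 3 each), with a change of -0.01 (limma adjusted p = 0.940).

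CDKN1A, the p21 gene through which p53 arrests the cell cycle, had 76.0, 55.2 and 74.1 FPKM in shC8 and 64.9, 55.6 and 78.6 FPKM in shCTR. Library 2 was again the lowest of each group, and the change was 0.04 (SE 0.158, limma adjusted p = 0.888). Of 41 other tested p53 targets, 2 rose (4.88%), 5 fell (12.2%) and 34 did not pass, with a median change of -0.03. The shares for all genes tested were 7.14% higher and 4.94% lower. TGFA, a ligand of the epidermal growth factor receptor, fell by 1.19 on the log2 scale (limma adjusted p = 0.00173). VDR and ORAI3 changed by -0.56 and 0.54 (limma adjusted p = 0.0329 and 0.0307), and both calls ended in 5 of the 6 fits without 1 library, and with no filter on low values (limma adjusted p = 0.0754 and 0.0738). The ORAI3 call also ended with the range term (limma adjusted p = 0.0514). With the block 6 rose and 12 fell, where 16.1% of all genes tested were higher and 10.6% lower. In these 41 genes library 2 was the lowest of both groups in 22.0%. Of 28 cell cycle genes that p53 is known to lower through p21 and the DREAM complex, TOP2A rose, by 0.27 (limma adjusted p = 0.0344), and none fell. Without shC8 2, shC8 3, shCTR 1, shCTR 2 or shCTR 3 the TOP2A call ended (limma adjusted p up to 0.122), as it did with median-of-ratios scaling (0.0587). With the block 4 rose and 1 fell, and the median change of the 28 was 0.03.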

How the data were processed

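The authors deposited 1 table of FPKM per gene symbol and library. Per the submitters' processing notes, TopHat, Cufflinks and Cuffdiff were used with hg38; versions and roles are not given. Libraries were stranded total RNA after ribosomal depletion, per the labels' protocols. Neither the annotation nor the use of strand in counting is stated. FPKM divides by a library total, so abundant genes shift all others, and 9 of the 30 genes overlap an exon on the opposite strand. On the same strand 2 genes, MDM2 and PHLDA3, overlap an exon of another gene, which strand cannot separate. FPKM carries no counts, so no count test was run and the deposited values were tested as log2(FPKM + 1), which understates the change of low genes.

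Genes averaging 1 FPKM or more were tested with limma 3.58.1 (R 4.3.3), moderated with a mean trend, two-sided, shC8 against shCTR. Calls were made at 0.05 after Benjamini-Hochberg adjustment over all genes tested. In a simulated shC8 against shCTR comparison of 11598 genes, the fit recovered 71% of simulated log2 changes of 0.5 and 96% of those of 1, and 5.11% of its calls were false. There 200 genes were changed and the noise was drawn independently for each library, without deviations shared by same-numbered libraries. These shares describe that setting and not the error rate in the real data. Libraries 1, 2 and 3 of shC8 deviated from their group mean together with those of shCTR (Pearson's r across genes 0.397, 0.266 and 0.291, each above 0.1). The replicate numbers were therefore used as pairs in an alternative fit with a block, while the main fit held no replicate term. No label states a pairing. Blocked values stand where they change a call.

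The 30 genes, the other gene lists and the tests were chosen with earlier results of these data known. All 30 are named. Values in every library are given for those called, with or without the block, those changed by at least 0.5, and MDM2, ZMAT3 and GDF15. Outside the 30, CASP8, MDM4, CDKN2A and CDKN1A and up to 4 called genes of largest change per list are named, except that some items are not reported here. Alternatives were a pseudocount of 0.1, no filter, a minimum of 5 FPKM, scaling by median of ratios, quantile normalization, the replicate block, no mean trend, the column number range as a term, and each library left out. Gene positions are from GENCODE on GRCh38, and promoter windows from RefSeq on GRCh38.p14. Tables were made with Python 3.11.15 and pandas 2.3.3.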

Additional observations from a re-analysis of the deposited data

How the results depend on the processing

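The replicate block, which pairs same-numbered libraries, gave 1862 higher and 1224 lower calls, of which 4 and 9 were p53 targets. Leaving out 1 library gave 261 to 699 genes higher and 216 to 647 lower, and 1 to 2 p53 targets higher and 2 to 3 lower. SERTAD1 joined PERP without shCTR 3. The median change of the p53 targets stayed negative, between -0.19 (without shCTR 2) and -0.06 (range term), with -0.16 without shC8 1 and -0.14 under quantile normalization. CASP8 lay between -1.56 and -1.48 without 1 library. Of the values of single p53 targets under alternatives, 373 kept direction and side of the threshold, 12 passed newly, 8 (all GADD45A) no longer passed and 9 changed sign, none of them called. With the range term CCNG1 was at 0.0645 and FDXR at 0.0228. Without 1 library CCNG1 lay between -0.207 and 0.0584 and FDXR between -0.188 and 0.0424. TP53I3 was at -0.0075 under quantile normalization and between -0.097 and 0.195 without 1 library. MDM4 was at 0.0051 with the range term and between -0.0395 and 0.0427 without 1 library, and CDKN1A at -0.0074 with median-of-ratios scaling and between -0.0753 and 0.189 without 1 library. The cause was not tested. Median-of-ratios scaling moved the median change of all genes tested to -0.0075. With 3 libraries a group and no counts, changes as small as those of most p53 targets lie near what the spread can show.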

Other observations

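Stress genes that overlap in their control with SESN2 and GDF15 were set beside the p53 targets. For comparison, 7.14% of all genes tested were called higher and 4.94% lower, and with the block 16.1% and 10.6%. Of 16 tested genes of the ATF4 response, VLDLR fell, by 0.67 on the log2 scale (limma adjusted p = 0.0320), and 15 did not pass, with a median change of -0.06. The VLDLR call ended without shC8 1, shC8 3, shCTR 1 or shCTR 2 (limma adjusted p up to 0.106) and with no filter on low values (0.0786), and with the block 1 gene rose and 5 fell. Of 14 tested immediate early genes, a class to which BTG2 and PLK2 are often counted, JUNB rose, by 0.35 (limma adjusted p = 0.0158), and 13 did not pass, with a median of -0.12. JUNB lost its call without shC8 2 or shCTR 2 (limma adjusted p up to 0.0605), and with the block 1 gene rose and 4 fell. Library 2 was the lowest of both groups for 4 of the 16 ATF4 genes and 2 of the 14 immediate early genes, against 17 of the 29 p53 targets.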
